A study of Mus musculus with 696 samples.

Results

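The genes described here are Calm4, Calml3, Krtdap, Dmkn and Sbsn, 5 genes of early epidermal differentiation taken by name from a table of 15652 genes, in which all 5 were present. They were followed over 696 single keratinocytes of mouse tail skin, sorted for tdTomato, a red fluorescent protein that marks the descendants of Lrig1+ stem cells of the upper hair follicle (HF). All mice carried Lrig1-EGFP-ires-CreERT2, which drives the inducible recombinase from the Lrig1 locus, together with Rosa26-fl/STOP/fl-tdTomato on a mixed CBA and C57BL/6 background, were young adult females, and had been given hydroxytamoxifen on the tail once, ahead of any wound. Skin was sampled unwounded (0w), in the first healing 1 week after a full-thickness wound (1w pw1), once healed at 8 weeks (8w pw1), and in a second healing 1 week after the healed site was wounded again (1w pw2, labelled 9w), and the sorted tissue held the wound bed together with HFs away from it.

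Each time point had 2 plates of sorted cells, replicate 1 and replicate 2, with 79 to 91 cells a plate and total estimated counts of 12293182 to 19760820 a plate. The labels do not say whether the plates of a time point came from separate mice. The study's methods speak of independent experiments on several biological replicates, without saying how these map to plates, so p-values measure the spread between plates, which may be technical. Both plates of a time point carry the same letter in their titles (RepB, RepC, RepF or RepG) and no letter spans 2 time points, so what the letter stands for and the time point cannot be told apart. By the study's design, the age of the mice and the time since labelling rose from 0w to 1w pw2. These too cannot be told apart from the time point. Plates at 1w pw1 and 1w pw2 are called healing plates below, and those at 0w and 8w pw1 homeostasis plates, 4 of each. The median share of mitochondrial counts per cell was 18.2% to 30.7% on homeostasis plates and 13.04% to 23.9% on healing plates. Keratinocyte markers were present on every plate, with Krt14 at 993 to 3710 CPM (a plate's summed counts scaled to a total of 1000000) and Krt5 at 180 to 818 CPM.

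The epidermis renews itself from a basal layer, whose cells stop dividing, move up and switch to the suprabasal keratins Krt1 and Krt10 before they cornify, a passage steered by a rise of calcium. Calm4 and Calml3 encode calmodulin-like proteins, small calcium sensors with EF-hand domains made in stratified epithelia, and neither is known as a secreted protein. Krtdap (keratinocyte differentiation-associated protein), Dmkn (dermokine) and Sbsn (suprabasin) encode secreted proteins of suprabasal keratinocytes, and their genes lie side by side.

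In the GRCm38 assembly, Sbsn (ENSMUSG00000046056) spans chr7:30751471-30756134, Dmkn (ENSMUSG00000060962) chr7:30763756-30781063 and Krtdap (ENSMUSG00000074199) chr7:30787896-30791097, all on the plus strand. The gaps between them measure 7621 and 6832 bases, with no other protein-coding gene in between. Calml3 (ENSMUSG00000063130) lies at chr13:3802896-3804316 on the minus strand and Calm4 (ENSMUSG00000033765) at chr13:3837757-3838673 on the plus strand, both with a single exon in their longest transcript. Calm5, a close relative of Calm4, is the next gene on the plus strand.

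The promoters of 4 of the 5 genes had a window in the RefSeq table (GRCm38.p6), from 250 bases before to 50 bases after the start of the transcript, and are printed because these genes are neighbours in pairs or threes and were measured in the same cells. Capitals mark matches to 5 motifs searched on both strands, namely TGANTCA (AP-1), CCACCC (Klf), AACCNGTT (Grhl), TTGCNNAA (C/EBP) and TATAAA (the TATA box). The Sbsn window is chr7:30751221-30751520, the Dmkn window chr7:30763506-30763805, the Krtdap window chr7:30787655-30787954 and the Calm4 window chr13:3837507-3837806, each on the plus strand.
Sbsn: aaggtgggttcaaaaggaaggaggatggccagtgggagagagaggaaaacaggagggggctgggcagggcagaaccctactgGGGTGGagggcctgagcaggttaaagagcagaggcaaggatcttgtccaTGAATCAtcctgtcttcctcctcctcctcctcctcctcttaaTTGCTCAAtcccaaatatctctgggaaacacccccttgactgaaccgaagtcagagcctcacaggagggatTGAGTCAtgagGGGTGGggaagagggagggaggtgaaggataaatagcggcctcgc
Dmkn: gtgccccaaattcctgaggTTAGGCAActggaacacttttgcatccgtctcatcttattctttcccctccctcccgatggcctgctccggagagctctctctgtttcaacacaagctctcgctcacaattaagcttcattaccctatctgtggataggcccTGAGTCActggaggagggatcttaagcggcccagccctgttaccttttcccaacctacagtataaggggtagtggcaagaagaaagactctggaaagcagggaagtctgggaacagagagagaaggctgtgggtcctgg
Krtdap: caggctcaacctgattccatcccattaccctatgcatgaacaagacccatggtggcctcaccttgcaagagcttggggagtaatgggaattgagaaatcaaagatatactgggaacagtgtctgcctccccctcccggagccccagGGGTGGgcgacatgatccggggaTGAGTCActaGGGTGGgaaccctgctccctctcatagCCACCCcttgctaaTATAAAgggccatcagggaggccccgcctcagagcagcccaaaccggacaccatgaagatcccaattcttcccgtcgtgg
Calm4: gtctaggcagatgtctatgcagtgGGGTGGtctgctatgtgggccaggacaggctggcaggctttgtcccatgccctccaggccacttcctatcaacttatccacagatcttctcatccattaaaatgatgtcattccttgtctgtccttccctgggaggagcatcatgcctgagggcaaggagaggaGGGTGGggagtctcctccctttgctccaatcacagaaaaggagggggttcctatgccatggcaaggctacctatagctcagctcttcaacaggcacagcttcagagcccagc

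All 3 windows on chromosome 7 held the AP-1 letters, which 7.81% of the 32851 windows of the table held. In Krtdap the match TGAGTCA began 81 bases before the start, in Dmkn 89 bases before it, and in Sbsn 6 bases before it, with a second match, TGAATCA, 119 bases before the start. A second Dmkn start inside the gene, with its window at chr7:30776155-30776454, also held TGAGTCA, 82 bases before that start. The Calm4 window held no AP-1 letters and 2 matches to the Klf letters, which 31.5% of all windows held. Krtdap held 3 Klf matches and Sbsn 2, Krtdap had a TATA box (13.6% of windows) that began 30 bases before the start, Dmkn and Sbsn had 1 C/EBP match each (10.8% of windows), and no Grhl letters (2.09% of windows) were found. The Calm4 and Calm5 windows were nearly the same sequence, with 255 of 256 bases alike once shifted by 44 bases. A match is a description of letters and says nothing of binding in these cells.

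Calm4 was higher in healing than in homeostasis, with the largest log2 change of the 5 genes. Its level, as CPM after TMM scaling of the plate sums, was 218 and 210 at 0w, 2715 and 4677 at 1w pw1, 278 and 356 at 8w pw1, and 1952 and 2410 at 1w pw2. All 4 healing plates stood above all 4 homeostasis plates, with no overlap. In the edgeR quasi-likelihood test over 13853 genes, which calls a gene at an adjusted p below 0.05 and a fold above 2, Calm4 was 17.3-fold higher at 1w pw1 than at 0w (log2 change 4.11 ± 0.49 SE, adjusted p = 0.0127) and 10.2-fold higher at 1w pw2 than at 0w (log2 change 3.35 ± 0.47, adjusted p = 0.0273). From 1w pw1 to 8w pw1 it fell by 3.54 on the log2 scale (adjusted p = 0.0286). Without 0w replicate 1 or 0w replicate 2 the first of these calls was lost (adjusted p = 0.0933 and 0.102) and so was the second (0.204 and 0.211, and also 0.0512 without 1w pw1 replicate 1 and 0.0637 without 1w pw2 replicate 2). The fall to 8w pw1 lost its call without 0w replicate 2 (0.0505) and without each of the 4 plates it compares (0.127 to 0.191). Against 8w pw1, 1w pw2 was higher by a log2 change of 2.78 ± 0.46, which missed the threshold (adjusted p = 0.156) and passed it with the replicate number as a block (adjusted p = 0.0310). Over both healings together, Calm4 was 10.9-fold higher than over both homeostasis time points (log2 change 3.45 ± 0.34, adjusted p = 0.00208).

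Calml3, the other calmodulin-like gene, was not called in any contrast. Its level was 152 and 118 CPM at 0w, 243 and 165 at 1w pw1, 323 and 272 at 8w pw1, and 558 and 195 at 1w pw2. The healing plates overlapped the homeostasis plates, and the plates of 1w pw2 stood far apart from each other. The log2 change of healing against homeostasis was 0.47 with a 95% interval of -0.39 to 1.32 (adjusted p = 0.646). The largest log2 change of Calml3 in any contrast was 1.48 ± 0.55, at 1w pw2 against 0w (adjusted p = 0.309).

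Krtdap, the first of the secreted proteins, had 961 and 1196 CPM at 0w, 11643 and 5575 at 1w pw1, 1998 and 1081 at 8w pw1, and 3502 and 2104 at 1w pw2. Every healing plate again stood above every homeostasis plate, though 1w pw2 replicate 2 lay close to 8w pw1 replicate 1. The log2 change of healing against homeostasis was 1.93 ± 0.38 (3.81-fold, adjusted p = 0.0345). At 1w pw1 against 0w it was 2.996 ± 0.56, just outside the threshold (adjusted p = 0.0534) and inside it with the replicate block (adjusted p = 0.0143). At 1w pw2 against 0w it was 1.38 ± 0.52 (adjusted p = 0.323).

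Dmkn had 278 and 157 CPM at 0w, 1317 and 1235 at 1w pw1, 394 and 403 at 8w pw1, and 826 and 589 at 1w pw2. Its healing plates did not overlap its homeostasis plates, and the plates of 1w pw1 were the highest. The log2 change of healing against homeostasis was 1.69 ± 0.32 (3.23-fold, adjusted p = 0.0308), and at 1w pw1 against 0w it was 2.55 ± 0.47 (adjusted p = 0.0502, or 0.0125 with the replicate block). Sbsn, the neighbour of Dmkn, had 98.8 and 62.6 CPM at 0w, 135 and 132 at 1w pw1, 151 and 165 at 8w pw1, and 335 and 171 at 1w pw2. The homeostasis plates of 8w pw1 lay above both plates of 1w pw1, so the groups overlapped. The log2 change of healing against homeostasis was 0.70 with a 95% interval of -0.06 to 1.46 (adjusted p = 0.379).

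**Figure D1:**
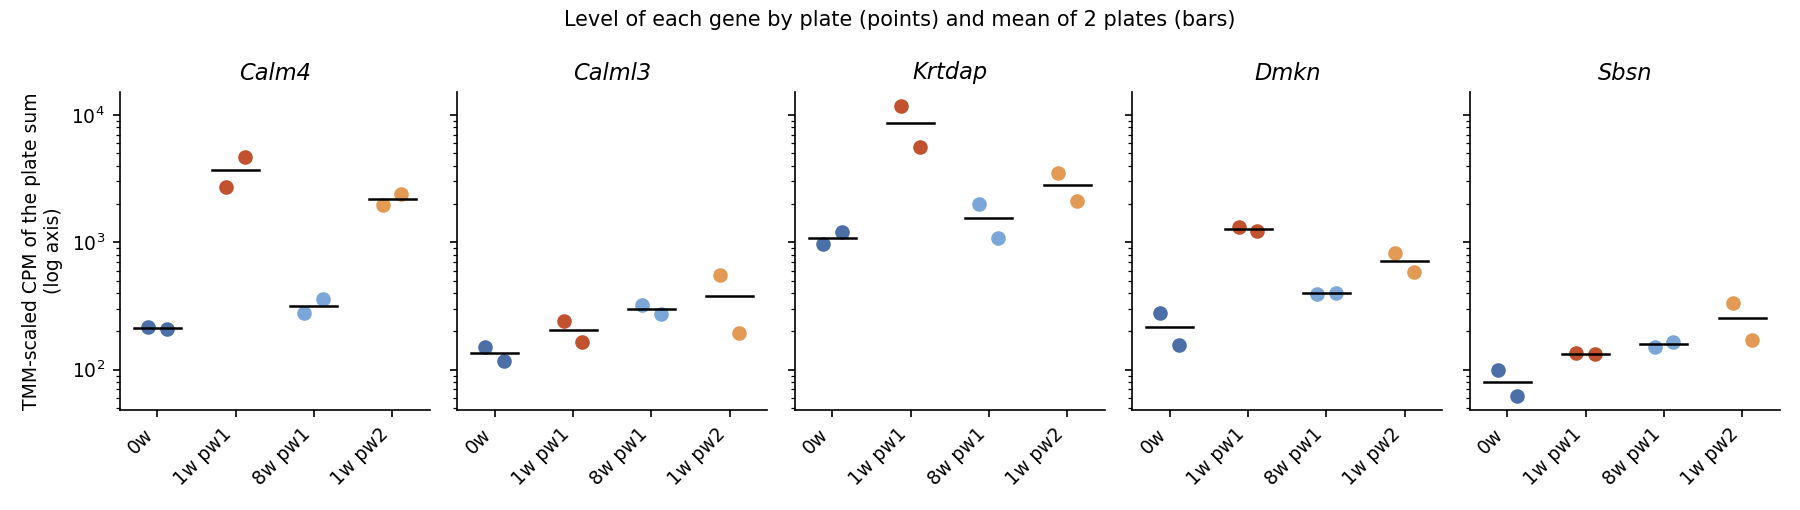
Level of each gene by plate. The vertical axis is the TMM-scaled CPM of the plate sum on a log axis, each point is 1 plate and each bar the mean of the 2 plates of a time point. Calm4, Krtdap and Dmkn stand higher on the plates of 1w pw1 and 1w pw2 than on those of 0w and 8w pw1, while Calml3 and Sbsn overlap.

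Counted over contrasts, 1 of the 5 genes was called at 1w pw1 against 0w (Calm4), beside 0.527% of all genes tested, or 3 beside 1.7% with the replicate block. At 1w pw2 against 0w 1 was called (Calm4, beside 0.267% of all genes), at 8w pw1 against 1w pw1 1 (Calm4, beside 0.115%, or Calm4 and Krtdap beside 0.794% with the block, where Krtdap had an adjusted p of 0.0416), and in healing against homeostasis 3 (Calm4, Krtdap and Dmkn, beside 1.8%). None was called at 8w pw1 against 0w (0% of all genes, with 897 at an unadjusted p under 0.05), at 1w pw2 against 1w pw1 (0%, with 832) or at 1w pw2 against 8w pw1 (0.00722%, or Calm4 beside 0.0577% with the block). These contrasts share plates and are not independent of each other. Of plate levels as such, 3 of the 5 genes had every healing plate above every homeostasis plate, beside 4.28% of all genes.

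The calls of Krtdap and Dmkn in healing against homeostasis rested on having all plates. Leaving out any 1 plate other than 1w pw2 replicate 2 took both above the threshold of 0.05 (adjusted p = 0.0527 to 0.143 for Krtdap and 0.0657 to 0.137 for Dmkn, edgeR), whereas Calm4 was called without each plate in turn (adjusted p = 0.00251 to 0.0199). When cells had to show 2000 genes or more and a mitochondrial share of 20% or less, which left 9 cells on 0w replicate 2, Calm4 kept its call (log2 change 2.83, adjusted p = 0.0231) and Krtdap did not (0.95, adjusted p = 0.593), nor did Dmkn (1.45, adjusted p = 0.268). With every cell given equal weight in the plate sum, Calm4 kept its call (2.96, adjusted p = 0.00162), and Krtdap (1.80, 0.0722) and Dmkn (1.43, 0.0686) did not.

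The study asked whether skin that had healed once responds differently to a second wound. That difference is the response to the second wound (1w pw2 against 8w pw1) less the response to the first (1w pw1 against 0w), and it was called for none of the 5 genes and none of the 13853 genes in edgeR (0%, with 740 genes at an unadjusted p under 0.05, and 80 genes called by DESeq2, none of them among the 5). Its log2 value was -1.33 ± 0.61 for Calm4, -2.13 ± 0.74 for Krtdap and -1.72 ± 0.63 for Dmkn (adjusted p = 0.932, 0.922 and 0.922), with 95% intervals of -2.69 to 0.04, -3.77 to -0.49 and -3.13 to -0.32. For Calml3 it was -0.26 and for Sbsn -0.04, with intervals of -1.96 to 1.44 and -1.56 to 1.47. Directly between the healings, Krtdap at 1w pw2 was below 1w pw1 by a log2 change of -1.62 ± 0.53 and Sbsn above by 0.92 ± 0.48 (adjusted p = 0.781 for both).

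No gene of the 5 was called between healed skin at 8w pw1 and unwounded skin at 0w, which came from younger mice sampled sooner after labelling. The log2 changes of 8w pw1 against 0w were 0.57 for Calm4, 1.14 for Calml3, 0.51 for Krtdap, 0.87 for Dmkn and 0.97 for Sbsn (adjusted p = 0.775 to 0.901, edgeR), and the upper ends of the 95% intervals lay between 1.53 and 2.36. The plates of 8w pw1 lay above those of 0w, without overlap, for 4 of the 5 genes, all but Krtdap, beside 17.8% of all genes. On 8w pw1 replicate 2, however, 1 cell held 25.1% to 34.9% of the counts of each gene. As the mean CPM over single cells, Calml3 (229 and 67.1 at 0w, 461 and 198 at 8w pw1) and Sbsn (229 and 77.6, then 234 and 192) overlapped. Calm4 and Dmkn did not, and the share of all genes was not computed for this mean. With 2 plates against 2, an exact permutation test cannot go below 0.333.

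The share of cells that held a gene was compared as well as its level. Cells with a count of Calm4 made up 37.5% and 38.5% of the plates at 0w, 86.5% and 88.6% at 1w pw1, 56.5% and 48.3% at 8w pw1, and 89.5% and 87.9% at 1w pw2. Most cells of every healing plate held Calm4, and on 3 of the 4 homeostasis plates most cells did not. The mean of the healing plates exceeded that of the homeostasis plates by 43.0 percentage points (exact two-sided permutation test over 4 plates against 4, p = 0.0286, the smallest that free exchange of plates allows). Only 0.065% of all genes tested had a larger difference, against a median difference of 2.33 points.

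For Krtdap the share was 63.6% and 51.6% at 0w, 95.5% and 94.9% at 1w pw1, 70.6% and 64.4% at 8w pw1, and 93.0% and 85.7% at 1w pw2, a difference of 29.7 points between healing and homeostasis. For Dmkn, the most widely held of the 5, it ran from 67.0% to 88.2% on homeostasis plates and from 91.2% to 97.8% on healing plates (16.3 points). For Sbsn it ran from 56.04% to 74.1% and from 83.5% to 89.9% (20.6 points), although its plate level had overlapped. Each of these 3 had the same exact p of 0.0286, and for Calml3, at 59.3% to 87.1% against 82.3% to 94.2% (13.98 points), the exact p was 0.0857. Thus 4 of the 5 genes had every healing plate above every homeostasis plate in this share, beside 12.2% of all genes. The p adjusted over all genes was 0.185 for each of the 4. An exact p of 0.0286 can fall below 0.05 after that adjustment only where most genes share it. At 8w pw1 both plates exceeded both plates of 0w in the share of Calm4 and of Krtdap, which 9.07% of all genes did.

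**Figure D2:**
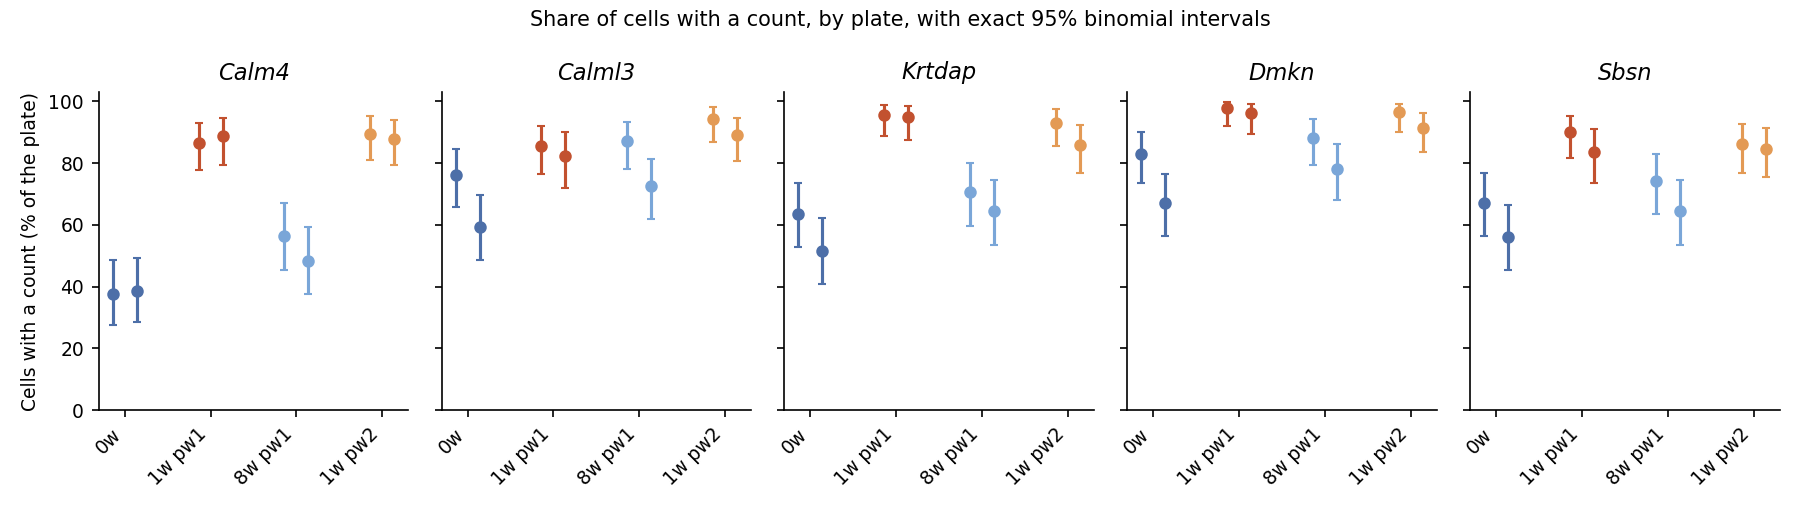
Share of cells with at least 1 count of each gene, by plate. The vertical axis is the percent of the cells of a plate, points are plates and bars are exact 95% binomial intervals, which cover counting error only. Calm4 runs from 37.5% to 56.5% on the plates of 0w and 8w pw1 and from 86.5% to 89.5% on those of 1w pw1 and 1w pw2.

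Shares depend on depth, so each cell was thinned to 20000 counts, with shallower cells left out. The difference was then 43.4 points for Calm4, 29.5 for Krtdap, 22.6 for Dmkn, 22.9 for Sbsn and 21.0 for Calml3, with an exact p of 0.0286 for each but Calml3 (0.114). For comparison, a cluster of 52 cells led by Scd1, a gene of lipid synthesis high in sebaceous cells, had Calm4 in 7.69% of cells and Krtdap in 7.69%, at a median of 229772 counts a cell. In the same cells Calml3 was found in 57.7%, Dmkn in 50% and Sbsn in 44.2%, so low counts of these 3 were widespread.

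The cells that held a gene also held more of it on healing plates, for some of the genes. Among cells with a count, the median level of Calm4 was 368 and 415 CPM at 0w, 1695 and 1805 at 1w pw1, 353 and 422 at 8w pw1, and 1362 and 1950 at 1w pw2. The plates of 8w pw1 overlapped those of 0w, and the healing plates lay above both. Healing exceeded homeostasis by 2.12 on the log2 scale for Calm4, 1.24 for Dmkn and 1.00 for Sbsn (exact permutation p = 0.0286 for each, 0.408 once adjusted over 9847 genes), and these 3 did not overlap, beside 0.691% of all genes. Krtdap exceeded by 1.63 (exact p = 0.0571) and Calml3 by 0.70 (exact p = 0.371), both with overlapping plates. This test was added after the values had been seen. In plate sums as such, fewer cells with a gene and less RNA per cell cannot be told apart. Here both were higher on all 4 healing plates for Calm4, Dmkn and Sbsn. Neither passed once adjusted over all genes, but the smallest exact p cannot pass unless most genes share it. That outcome therefore says nothing of these 3 genes.

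Cells were then divided by the suprabasal keratins, into those with at least 10 counts of Krt1 or Krt10 and the others, a split also chosen after the data had been seen. The first class made up 39.6% to 46.6% of homeostasis plates and 73.3% to 86.1% of healing plates. Within it, the mean log2(CPM + 1) of Calm4 was 5.76 and 5.82 at 0w, 10.02 and 10.23 at 1w pw1, 7.39 and 6.86 at 8w pw1, and 10.20 and 10.28 at 1w pw2. In the other cells it was 0.84 and 1.14 at 0w, 4.65 and 4.65 at 1w pw1, 2.47 and 2.38 at 8w pw1, and 4.70 and 4.39 at 1w pw2. In both classes the order was 0w, then 8w pw1, then the healing time points, and the plates of both healings overlapped each other. The difference between healing and homeostasis was 3.72 with the keratins and 2.89 without them (exact permutation p = 0.0286 for each, the smallest that 4 plates against 4 can give, and 0.372 and 0.337 once adjusted over 13853 genes). No exact p can pass that adjustment unless most genes share the smallest one.

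Dmkn also kept every healing plate above every homeostasis plate among the Krt1 or Krt10 cells (8.42 to 9.77 against 6.28 to 7.90), and it overlapped in the others (5.79 to 8.15 against 4.01 to 6.62, exact p = 0.0857). Krtdap overlapped in both classes, with 9.85 to 12.71 against 7.12 to 10.44 and with 4.08 to 7.62 against 3.42 to 4.98. Calml3 and Sbsn overlapped in both as well. Thus 2 of the 5 genes were separated among keratin cells, beside 4.32% of all genes, and 1 among the others, beside 6.74%, where a plate held as few as 11 cells.

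**Figure D3:**
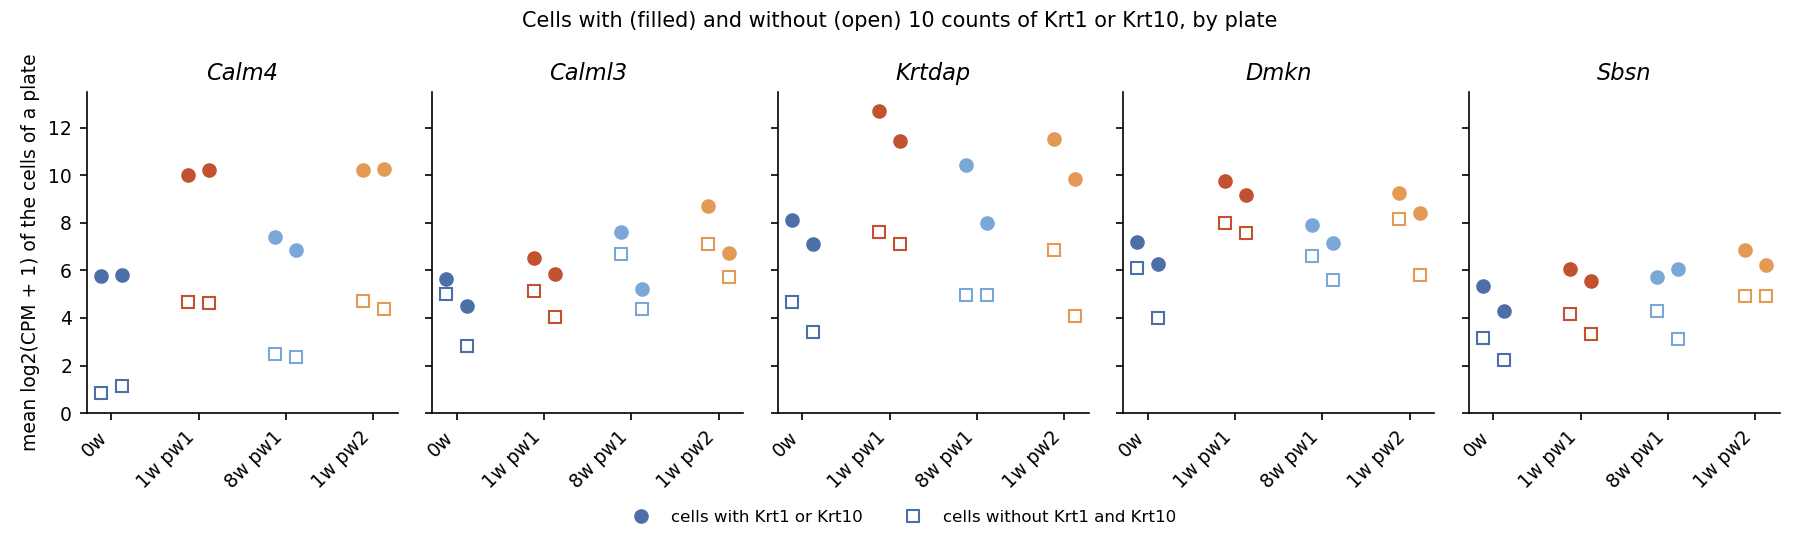
Mean level of each gene in 2 classes of cells. The vertical axis is the mean log2(CPM + 1) over the cells of a plate, filled circles are cells with at least 10 counts of Krt1 or Krt10, open squares the other cells, and each symbol is 1 plate. Calm4 lies between 10.02 and 10.28 in the keratin cells of the 4 healing plates and between 5.76 and 7.39 in those of the 4 homeostasis plates.

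Most cells held several of the genes at a time. Of the 696 cells, 347 held all 5, 136 held 4, 91 held 3, 54 held 2, 32 held 1 and 36 held none. All 5 were found in 26.1% and 19.8% of cells at 0w, 71.9% and 67.1% at 1w pw1, 44.7% and 28.7% at 8w pw1, and 74.4% and 68.1% at 1w pw2. Every healing plate thus stood above every homeostasis plate, but the share itself depends on depth and on the count asked for. In cells thinned to 20000 counts all 5 were found in 48.8%, 39.7%, 56.6% and 50.6% on the 4 healing plates and in 14.8% to 29.6% on homeostasis plates. With at least 10 counts of each gene the ranges were 30.3% to 51.2% and 10.3% to 21.2%, so that no more than 1 healing plate held all 5 in most of its cells. Of the 136 cells that lacked only 1 gene, 54 lacked Calm4, 37 Sbsn, 33 Calml3, 8 Krtdap and 4 Dmkn. Of the 32 cells with a single gene, 12 held Calml3, 9 Dmkn, 9 Sbsn, 2 Calm4 and 0 Krtdap.

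Calm4 and Krtdap, on different chromosomes, were the closest pair. Over the cells of a plate, the Spearman correlation of their levels was 0.69 on average over 8 plates, and 0.58 to 0.75 from plate to plate. Cells with Calm4 held Krtdap in 96.5% of cases on average, and cells without Calm4 in 43.2%. In the other direction, cells with Krtdap held Calm4 in 81.1% and cells without it in 11.4%. Among the neighbours on chromosome 7, Krtdap and Dmkn correlated at 0.52 (0.44 to 0.66), Dmkn and Sbsn at 0.45 (0.21 to 0.61) and Krtdap and Sbsn at 0.33 (0.11 to 0.47). Calml3 correlated best with Sbsn, at 0.44 (0.27 to 0.65), and least with Calm4, at 0.23 (0.10 to 0.42), the lowest mean of the 10 pairs. The cells of a plate share a library preparation, and these correlations are given as descriptions, without a test. All 10 pairs were above 0 on all 8 plates, and the thinned cells gave means of 0.21 to 0.70, with Calm4 and Sbsn at -0.02 on 1 plate. The mean correlation of a gene's level with the total counts of the cell was -0.11 to 0.02 over the 5 genes, and that with its mitochondrial share -0.34 to -0.21.

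**Figure D4:**
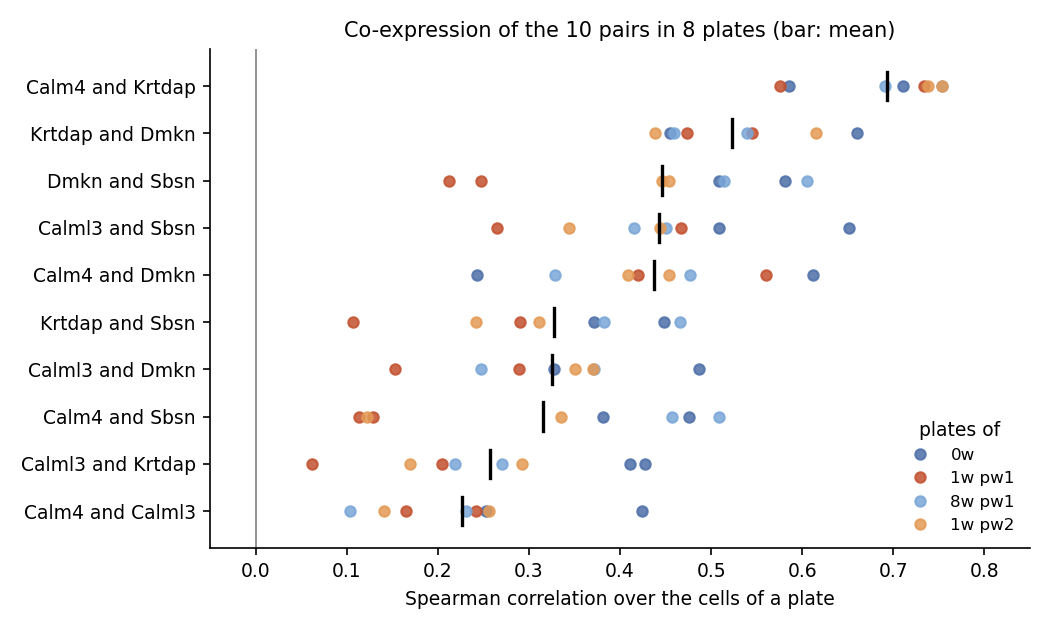
Co-expression of the 10 pairs of genes. The horizontal axis is the Spearman correlation over the cells of a plate, each point is 1 of 8 plates coloured by time point and each bar the mean. Calm4 and Krtdap have the highest mean, 0.69, and Calm4 and Calml3 the lowest, 0.23.

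The genes whose pattern was most alike were found by the mean Spearman correlation over the 8 plates, among 10235 genes with a count in at least 10% of cells. For Calm4 they were Krtdap (0.69), Ly6d (0.68), Gltp (0.67), the desmosomal cadherin Dsc1 (0.65), the suprabasal keratin Krt10 (0.64), Tmprss4 (0.63), Rab25 (0.63) and Fam25c (0.62), and at the other end stood Ftl1 (-0.53), the basal keratin Krt5 (-0.39), Rflnb (-0.38) and S100a6 (-0.38). For Krtdap they were Calm4 (0.69), Fam25c (0.63), Ly6d (0.58), Krt10 (0.56), Gltp (0.55), Dsc1 (0.54), Lgals3 (0.53) and Dmkn (0.52), with Ftl1 (-0.46), Thbs1 (-0.40), Nedd9 (-0.37) and Nfib (-0.36) lowest. Both lists hold Ly6d, Gltp, Dsc1, Krt10 and Fam25c. For Dmkn they were Krtdap (0.52), Sfn (0.48), Fam25c (0.47), the desmosomal plaque gene Pkp1 (0.46), Sbsn (0.45), Calm4 (0.44), Prdx5 (0.44) and Lgals3 (0.44), with Nedd4 (-0.29), D10Wsu102e (-0.29), Car12 (-0.29) and Pparg (-0.27) lowest.

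The lists of Sbsn and Calml3 began with other genes, although Fam25c was also among those of Sbsn. For Sbsn the nearest were Ly6g6c (0.64), the cysteine protease inhibitor Cst6 (0.63), the serine protease inhibitor Spink5 (0.61), Pdzk1ip1 (0.58), Psapl1 (0.55), Hspb1 (0.55), the retinoic acid binding protein Crabp2 (0.54) and Fam25c (0.52), and the farthest Npm1 (-0.48), Ifitm3 (-0.40), Atp5g3 (-0.39) and Set (-0.39). For Calml3 the nearest were Cst6 (0.45), Sbsn (0.44), Spink5 (0.43), Crabp2 (0.42), Nebl (0.42), Gsn (0.42) and Gpx2 (0.40), and the farthest the metallothionein Mt2 (-0.35), Npm1 (-0.31), Hnrnpa2b1 (-0.28) and Cbr2 (-0.28). Krt1 correlated with Calm4 at 0.57 and with Krtdap at 0.47, but with Calml3 at 0.012 and with Sbsn at -0.001. Krt10 correlated with Sbsn at 0.25 (0.099 to 0.43) and with Calml3 at 0.14 (0.0024 to 0.33), above 0 on all 8 plates for both. The mean of the 5 genes was closest to Fam25c (0.73), Gltp (0.71), Ly6g6c (0.66), Lgals7 (0.64), Ly6d (0.63), Dsc1 (0.60), Lgals3 (0.59) and Rab25 (0.59), and farthest from Nedd9 (-0.43), Ftl1 (-0.43), Hnrnpa2b1 (-0.40) and Thbs1 (-0.39).

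Clustering the cells on the other genes gave 13 clusters, which are called here by their leading genes and not tested. A level in a cluster is the mean over plates with at least 3 of its cells, and is compared between clusters for 1 gene at a time. Calm4 was highest in cluster 2, led by Cst6, Dapl1 and Cdkn1a, with a mean log2(CPM + 1) of 11.01, and in cluster 5, led by Krt1, Krt10 and Mt4, with 10.6, and it was lowest in cluster 9, led by Postn and Krt15 (0.098), and in cluster 10, led by Scd1 (0.22). Krtdap was highest in the same pair of clusters, with 11.98 in cluster 5 and 11.9 in cluster 2, and lowest in cluster 10 (0.49) and cluster 9 (2.57). Cluster 3, led by Krt5, Col17a1 and Itgb4, genes of cells attached to the basement membrane, had Krtdap in 90% of its 30 cells and Calm4 in 56.7%. Dmkn ran from 2.82 in cluster 10 to 9.95 in cluster 2, the narrowest span but for Calml3 (3.17 in cluster 8 to 8.41 in cluster 4). Sbsn was highest in cluster 4, led by Cst6, Sprr1a and Defb6, at 9.06, and was found in all of its 61 cells, and Calml3 was highest there too. These means mix the state of the cells with the time point. Of the cells of cluster 5, 90 of 109 came from healing plates, whereas 36 of 38 in cluster 9, 47 of 52 in cluster 10 and all 30 in cluster 3 came from homeostasis plates, and in cluster 2, 38 of 40 came from replicate 1 plates. Whether the clusters differ as much within a time point was not tested.

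Cluster 12, led by Cstdc5, S100a8 and Fabp5 and with the stress keratins Krt6a, Krt6b and Krt16 among its top genes, held 61 cells, all of them from healing plates. There Dmkn (9.70), Krtdap (10.38) and Calm4 (8.62) lay in the upper part of their ranges over clusters, Calml3 (5.57) near the middle and Sbsn (2.96) in the lower part. In cluster 5 too, Calm4 and Krtdap were at or near their highest while Sbsn (5.43) and Calml3 (5.34) were not. This contrast depends on the clustering. With 20 components in place of 10, the cluster highest in Calm4 (11.14) and Krtdap (11.97), with 47 cells, had Sbsn at 7.47 and Calml3 at 7.26, and another of 84 cells, with Calm4 at 10.45 and Krtdap at 11.90, had Sbsn at 4.33 and Calml3 at 4.59. At a finer resolution of 10 components the cluster highest in Calm4 (12.27) had Sbsn at 6.15 and Calml3 at 6.40. Sbsn was highest at 9.06 with 20 components and at 9.14 at the finer resolution, and Calml3 was highest in another cluster than Sbsn in both. How far the make-up of the plates by cluster sets the plate levels was not tested.

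**Figure D5:**
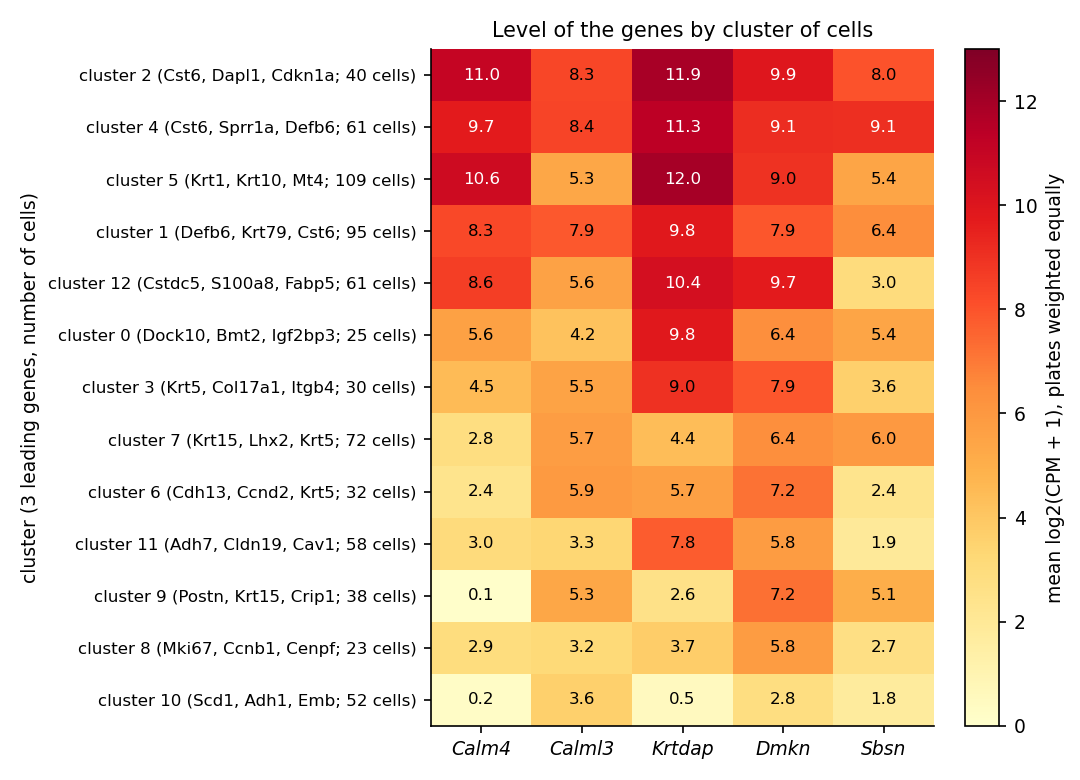
Mean level of the 5 genes in 13 clusters of cells. Rows are clusters, named by number and by 3 leading genes with the number of cells, columns are genes, and the colour and printed value are the mean log2(CPM + 1) with plates weighted equally. Calm4 and Krtdap are high in clusters 2, 4 and 5, and Sbsn reaches 9.06 in cluster 4 and 2.96 in cluster 12.

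Over whole plates, the summed level of 4 suprabasal markers (Krt1, Krt10, Dsc1, Dsg1a) was 2246 to 5017 CPM on homeostasis plates and 13565 to 29513 on healing plates, with none of the 4 at 0 on any plate. That of 6 wound-activated markers was 55.3 to 795 and 2755 to 22605, with up to 3 of the 6 at 0 on a homeostasis plate, that of 3 markers of the tail scale (Krt36, Krt84, Mt4) 6.17 to 265 and 316 to 2005, with up to 2 of the 3 at 0 on a homeostasis plate, and that of 8 sebaceous markers 1016 to 7516 and 487 to 947. The suprabasal, wound-activated and scale sums were higher on all 4 healing plates, as Calm4, Krtdap and Dmkn were. Their part in the plate levels was not tested. The keratin split above does not test it, since Krt1 and Krt10, which define its classes, were themselves called higher in healing. Markers of immune cells (3 of 5 in the table, up to 31.8 CPM in sum, with Cd3e at 0 on 4 plates), fibroblasts (5 of 5, up to 29.5, with Col1a1 at or below 0.22), melanocytes (4 of 5, up to 12.1) and Merkel cells (1 of 4, up to 3.01) were at low levels on every plate. Of the endothelial markers, 2 of 3 were in the table, Pecam1 at 94.5 to 1812 CPM and Kdr at or below 0.26 CPM.

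Lists of related genes of differentiation were taken through the same contrast of healing with homeostasis, in which 1.8% of all genes were called and the median log2 change over all genes was -0.0025. Of 11 suprabasal genes, 5 were called higher and 0 lower, with a median log2 change of 1.38. These were the keratins Krt2 (6.75, adjusted p = 0.00809), Krt1 (3.99, 0.0186) and Krt10 (3.20, 0.00893), the fatty acid binding protein Fabp5 (3.90, 0.0390) and the desmosomal cadherin Dsc1 (1.92, 0.0347). Of 16 genes of the granular layer, where cells complete the barrier, 1 was called higher, the protease Casp14 (3.11, adjusted p = 0.0126), and the median was 1.77. Of 12 basal genes none was called (median -0.69), and the highest in level, Krt14, had a log2 change of 1.17 (adjusted p = 0.0954). Of 19 regulators of differentiation none was called (median 0.74), among them Klf4 at 0.89 and Trp63 at -0.50.

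Among 12 other EF-hand calcium sensors, 2 were called higher, S100a9 and Calm5, and 0 lower, with a median of 0.74. Calm5 had 9.24 and 6.37 CPM at 0w, 90.4 and 304 at 1w pw1, 2.74 and 14.9 at 8w pw1, and 49.8 and 44.1 at 1w pw2, a log2 change of 3.53 ± 0.60 (adjusted p = 0.0198). Its healing plates all stood above its homeostasis plates, as those of Calm4 did. Neither S100a9 nor Calm5 was called in any other contrast. The ubiquitous calmodulin genes Calm2 and Calm3 were not called in any of the 8 contrasts, and across cells their correlation with Calm4 was -0.17 and -0.06, against 0.55 for Calm5. In the annotation, 98 of the 887 distinct stretches of 31 bases in the Calm4 transcript occur in Calm5 as well, and no stretch of 75 bases, the length of a read, does. Of the values of Calm4 above 0, 31.4% were not whole numbers. Which step of the counting gave these values, and whether reads were split with other transcripts, was not tested. For Krtdap the share of values that were not whole was 26.6%, for Dmkn 4.46%, for Sbsn 2.47% and for Calml3 0%. In the annotation the span of Gm40655, not analysed here, overlaps Calm4 on the same strand, but their transcripts share no stretch of 31 or 75 bases. Whether this overlap affects the counts of Calm4 was not tested. Sbsn overlaps the noncoding gene Tmem147os on the same strand, also not analysed here, which shares 206 of the 3517 stretches of 75 bases in Sbsn transcripts.

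Levels of different genes can be compared only per length. Per kilobase of the median annotated transcript, Krtdap was the highest at 0w, with 3127 ± 482 CPM per kilobase (SD, n = 2 plates), followed by Calm4 (233 ± 5.60), Calml3 (140 ± 24.9), Dmkn (111 ± 43.4) and Sbsn (110 ± 35.0), and the last 3 overlapped between plates. At 1w pw1 the order was Krtdap (24955 ± 12436), Calm4 (4031 ± 1513), Dmkn (649 ± 29.4), Calml3 (211 ± 57.1) and Sbsn (182 ± 2.45), the last 2 again overlapping. At 8w pw1 Krtdap (4462 ± 1879) was followed by Calm4 (346 ± 60.2) and Calml3 (309 ± 37.3), which overlapped, with Calml3 above Calm4 on replicate 1, and by Sbsn (216 ± 12.7) and Dmkn (203 ± 3.25). At 1w pw2 Krtdap (8125 ± 2864) and Calm4 (2379 ± 353) stood above Calml3 (390 ± 266), Dmkn (360 ± 85.3) and Sbsn (346 ± 158), which overlapped. The order below Krtdap depends on the length taken, since the median transcript of Sbsn has 732 bases and its longest 2460, and those of Calml3 have 965 and 1421. Per kilobase of the longest transcript, Sbsn was at 40.2 and 25.4 at 0w and at 54.8 and 53.7 at 1w pw1, below both plates of Calml3 (107 and 82.9, then 171 and 116), and below both plates of Dmkn at 0w (135 and 76.2). On that scale Calml3 no longer reached Calm4 at 8w pw1, with 228 and 192 against 303 and 388. Dmkn and Calml3 overlapped at 0w, at 8w pw1 (191 and 195 for Dmkn) and at 1w pw2 (401 and 285 for Dmkn, 393 and 137 for Calml3). The log2 ratio of Calm4 to Calml3, in which length drops out of the comparison of plates, was -0.22 to 0.84 on homeostasis plates and 1.81 to 4.83 on healing plates, and that of Krtdap to Dmkn was 1.42 to 2.93 and 1.84 to 3.14. The first ratio separated the plates and the second did not.

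The plate sums leaned on single cells in places. On 0w replicate 2, 1 cell held 56.2% of the Krtdap counts and 56.6% of the Calml3 counts, and on 8w pw1 replicate 2, 1 cell held 25.1% to 34.9% of the counts of each of the 5 genes. Elsewhere the top cell held 5.56% to 31.2%. Of the genes next to the 5 on the chromosomes, Calm5 was called and the others tested were not. Tmem147, at 46.9 to 84.4 CPM on the Sbsn side, had a log2 change of 0.097 in healing against homeostasis, Net1, beyond Calm5, 0.021, and Gdi2, before Calml3, 0.45 (adjusted p = 0.931, 0.984 and 0.714, edgeR). Gapdhs, Atp4a and Ffar2 stayed at or below 3.38 CPM on every plate.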

How the data were processed

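Single cells were read with Smart-seq2 on 75-base single-end reads. The authors mapped the reads to the mouse transcriptome of Ensembl with Salmon 0.13.1, on the build mm10 (GRCm38), and deposited 1 table of expected counts per gene and cell, not normalized, 96.6% of them whole. How transcripts were summed to genes is not given in the sources used here. Cells under 1000 genes or over 50% mitochondrial counts had been dropped by the study, and the table held none. The study tested single cells in Seurat, whereas plates were tested here.

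The deposited expected counts were added up by plate, rounded, and tested with edgeR 4.0.16 in R 4.3.3. The fit held 8 plates with the time point as its term, TMM normalisation, filterByExpr, the quasi-likelihood test and Benjamini-Hochberg adjustment over 13853 genes, with 4 residual degrees of freedom. A gene was called at an adjusted p below 0.05 and a fold above 2. Shares and levels within cells were compared between plates with exact two-sided permutation tests over 4 plates against 4, 70 arrangements, and p-values adjusted over the 5 genes alone are not given. Deviations of same-numbered plates from their time point correlated at 0.12 to 0.21 in all 6 pairs of time points. The replicate number was therefore taken to pair plates, from these data and not from the labels, and a fit with it as a block was run. The permutation tests exchanged plates freely and did not keep to this number. Exchange within the number has fewer arrangements, so its smallest permutation p lies above 0.0286, and it was not run. Correlations between cells used log2(CPM + 1) of the cell. Cells were clustered without the 5 genes with scanpy 1.11.5 on 10 components. No doublet caller was run. The likeness of patterns was measured for all genes with a count in at least 10% of cells, and the 8 highest and 4 lowest are named, without predicted models, pseudogenes and 1 gene that is not reported here; of each list of other genes, the members called are named, or the most abundant. Gene coordinates are from GENCODE (GRCm38), promoter windows from RefSeq (GRCm38.p6), matched by symbol. The genes, lists and tests were chosen with earlier results of these data known. DESeq2 1.42.0, other scaling, filters on cells, and each plate left out were tried as alternatives. Reads carry no molecular identifiers, so intervals of shares cover counting error only, at 95%.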

Additional observations from a re-analysis of the deposited data

How the results depend on the processing

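Of 630 log2 changes of the 5 genes under the alternatives, 558 kept their direction and their side of the threshold, 34 lost a call, 17 gained one and 21 turned sign, none of the last for Calm4 or Dmkn and none for a called value. The cause of these shifts was not tested. In the counts of the 5 genes called, 1w pw1 against 0w went from 1 to 3 with DESeq2 and with the replicate block, to 2 without the filter on low counts, without the deepest cell of every plate or with only the plates compared, to 0 with the stricter filter on cells, and to 0 to 3 with 1 plate left out. For 1w pw2 against 0w it went from 1 to 2 with DESeq2, to 0 with the stricter filter or with only the plates compared, and to 0 to 1 with 1 plate left out. For 1w pw2 against 8w pw1 it went from 0 to 1 with DESeq2 and with the block. For 8w pw1 against 1w pw1 it went from 1 to 3 with DESeq2, to 2 with the block, to 0 with the stricter filter or with only the plates compared, and to 0 to 1 with 1 plate left out. For healing against homeostasis it went from 3 to 1 with every cell scaled equally or with the stricter filter, and to 1 to 3 with 1 plate left out. For shares of cells, none passed adjustment over all genes, which the smallest exact p allows only where most genes share it. In these shares the number of the 5 genes at an unadjusted exact permutation p under 0.05 went from 4 to 2 to 5 with 1 plate left out, where 3 plates against 4 that do not overlap can have a p of 0.0571. That number was not computed over all genes with a plate left out. The replicate block changed no other call of the 5 genes.

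The sign turned under the stricter filter, which keeps 313 of the 696 cells, for Calml3 (-0.39) and Sbsn (-0.11) at 1w pw1 against 0w, Krtdap against 0w at 8w pw1 (-0.15) as well as at 1w pw2 (-0.058), Calml3 at 1w pw2 against 8w pw1 (-0.55), the difference between healings of Sbsn (0.16), and Calml3 (-0.47) and Sbsn (-0.028) in healing against homeostasis. With every cell scaled equally it turned for Sbsn at 8w pw1 against 1w pw1 (-0.0020) and for its difference between healings (0.091), and without the deepest cells for the latter (0.075). With 1 plate left out, Krtdap at 8w pw1 against 0w ran from -0.0094 to 0.83, Calml3 from -0.085 to 1.48 at 1w pw2 against 1w pw1, from -0.60 to 0.96 at 1w pw2 against 8w pw1, from -1.20 to 0.37 in the difference between healings and from -0.0022 to 0.78 in healing against homeostasis, and Sbsn from -0.60 to 0.41 in the difference between healings.

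Over all genes, DESeq2 called more than edgeR, and so did the block in all contrasts but 1w pw2 against 1w pw1. At 1w pw1 against 0w the counts were 732 and 236 beside 73 (edgeR without a block), at 8w pw1 against 0w 155 and 3 beside 0, at 1w pw2 against 0w 688 and 96 beside 37, at 1w pw2 against 1w pw1 45 and 0 beside 0, at 1w pw2 against 8w pw1 290 and 8 beside 1, at 8w pw1 against 1w pw1 561 and 110 beside 16, in the difference between healings 80 and 3 beside 0, and in healing against homeostasis 1002 and 459 beside 249. At 1w pw1 against 0w edgeR called 94 of 15651 genes without the filter on low counts, 71 of 13806 without the deepest cells, 126 of 12939 with only the plates compared and 24 of 12444 with the stricter filter. At 1w pw2 against 0w it called 9 genes with the stricter filter and 12 when the fit was limited to those plates, and at 8w pw1 against 1w pw1 20 and 9. In healing against homeostasis it called 58 with the stricter filter and 244 of 14116 with every cell scaled equally. With 1 plate left out these 4 contrasts had as few as 8, 1, 0 and 68. All 55 differences in shares and all 20 mean correlations stayed above 0. Sbsn in cells without the suprabasal keratins reached the smallest exact p, 0.0286 (1.16), when 1 count of Krt1 or Krt10 was the limit in place of 10, a permutation test over 4 plates against 4 added after the data had been seen. At that limit a plate held as few as 4 such cells, and Calm4 in them spread over 2.05 to 6.34 on healing plates and 0.65 to 1.44 on homeostasis plates, in place of 4.39 to 4.70 and 0.84 to 2.47. Calm4 (3.11) kept its exact permutation p of 0.0286. With 2 plates a time point, small changes are beyond these contrasts.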
